A study of Homo sapiens with 102 samples.

Results

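CENP-A, the form of histone H3 found at working centromeres, was mapped on human artificial chromosomes (HACs) in cells in which KAT7 or HJURP had been targeted by siRNA. The account covers the 6 CENP-A libraries labelled siControl, siKAT7 and siHJURP in cells with HAC 1-20 or HAC 4-65, out of 102 libraries of the series, and the members were taken by these labels alone. All 6 came from HT1080, an established human fibrosarcoma line, carrying 1 of the HACs. Each line is defined by the HAC it holds, and each condition has 1 library, made from the pooled DNA of 3 ChIP reactions, so no spread between replicates can be given. Per the study's methods, cells were transfected with siRNA and transfected again before harvest, and siControl cells received a control siRNA in the same way. The other CENP-A libraries of both lines, used here as a yardstick, came from untreated cells and from cells under thymidine, colcemid or release from colcemid. The levels of KAT7 and HJURP themselves were not analysed here, so the labels were not checked against the depletion.

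HJURP is the chaperone that deposits newly made CENP-A at centromeres after mitosis. KAT7, also known as HBO1, is a histone acetyltransferase that acts on histones H3 and H4. CENP-A is shared out between sister chromatids when DNA is replicated, so that its level on centromeric DNA has to be restored by new deposition in each cell cycle.

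Every repeat unit of these HACs bears a position code, a short designed sequence that tells the units apart, and the reads count how often each code was recovered in a competitive PCR with common primers. The codes are named T or L. Codes T were read as the CenU units, which hold binding sites for CENP-B, and codes L as the NCU units, in which these sites are mutated, which is inferred, as CENP-A reads fell mostly on T codes, and is not stated in the files. A T code has 23 bases, of which 6 vary, in 3 pairs, and the last 2 pairs are alike in every T code. The codes below, from the study's list, are shown because their shares of the T reads of HAC 1-20 differed past 2-fold from siControl cells, with the variable bases in capitals. The first 3 are the codes that were past 2-fold higher after both depletions, and the other 2 those that were past 2-fold lower after siKAT7.
T094: ggggaaaaTTcccCTtttCTggg
T095: ggggaaaaTTcccCGtttCGggg
T096: ggggaaaaTTcccCCtttCCggg
T069: ggggaaaaTAcccTAtttTAggg
T125: ggggaaaaTCcccCAtttCAggg
T069 has no G or C among its variable bases. In HAC 4-65, the next 3 were among the codes past 2-fold apart between the siKAT7 and siHJURP libraries.
T005: ggggaaaaAAcccTAtttTAggg
T018: ggggaaaaATcccATtttATggg
T028: ggggaaaaATcccGCtttGCggg
Codes T005 and T018 have 0% G or C at the variable bases and T028 has 66.7%. In 122 T codes the letters follow the regular order of the list, and in 6 they do not. Code T001, carried by both lines, has the letters that belong at the place of T072, and T072 those of the first place, so both are shown.
T001: ggggaaaaTAcccTCtttTCggg
T072: ggggaaaaAAcccAAtttAAggg
Code T001 was therefore left out of every run of neighbouring codes.

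Depth differed widely among the 6 libraries and set what could be read from each. In HAC 1-20, the siControl library held 37008 T reads and 8890 L reads, the siKAT7 library 3960 and 651, and the siHJURP library 162694 and 28119. The HAC 4-65 libraries held 1264 T reads and 230 L reads in siControl, 79464 and 10246 in siKAT7, and 5319 and 690 in siHJURP. Unmatched reads were 7.60% to 12.7% of all reads in these 6 libraries. A code was counted as carried by a line where it held at least 0.1% of T reads in the median library of that line, which gave 61 T codes in HAC 1-20 and 75 in HAC 4-65. The median carried code had 728, 72 and 2928 reads in siControl, siKAT7 and siHJURP cells of HAC 1-20, and 17, 1125 and 65 reads in those of HAC 4-65. The siControl library of HAC 4-65 is the weakest, since 2 of its carried codes had 0 reads and 21 had under 10, and both comparisons with siControl in that line rest on it. For this reason values against the untreated library and of siHJURP against siKAT7, which do not use it, are also given for that line. Intervals are 95% intervals for counting error, and PCR copies of 1 molecule are counted as separate reads, so that the true error is larger.

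The balance between T and L codes was first compared, because it shows how CENP-A reads divide between units with and without CENP-B sites. In HAC 1-20, T codes held 80.6% of matched reads in siControl cells, 85.9% in siKAT7 cells and 85.3% in siHJURP cells, which is 4.16, 6.08 and 5.79 T reads per L read. The ratio was 1.46-fold higher in siKAT7 than in siControl cells (interval 1.34 to 1.59) and 1.39-fold higher in siHJURP cells (1.35 to 1.43). The HAC 4-65 libraries gave 5.50 T reads per L read in siControl, 7.76 in siKAT7 and 7.71 in siHJURP cells. These ratios were 1.41-fold (1.22 to 1.63) and 1.40-fold (1.19 to 1.65) higher than in siControl cells. After either depletion the L codes thus took a smaller part of the CENP-A reads than in siControl cells, in both lines and by similar factors. The ratios of siHJURP to siKAT7 cells were 0.951 (0.875 to 1.03) in HAC 1-20 and 0.994 (0.916 to 1.08) in HAC 4-65, so both depletions differed from each other by less than counting error. These ratios describe the division of reads and not the amount of CENP-A, since a loss from all codes alike leaves every share as it was. By ChIP-qPCR the study reported less CENP-A in both lines after either depletion, an amount that these ratios do not show. In its HAC lines it reported significant CENP-A recovery on CenU DNA and not on NCU DNA.

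The same ratio varied more among cells that had received no siRNA. It ran from 2.57 under colcemid to 6.43 in untreated cells of HAC 1-20 and from 2.95 under colcemid to 10.97 in untreated cells of HAC 4-65. The values after both depletions lie inside these ranges in both lines. Set against untreated cells in place of siControl cells, the difference turned to the other direction. In HAC 1-20 the log2 ratio was -0.08 (-0.20 to 0.044) for siKAT7, an interval that includes 0, and -0.15 (-0.19 to -0.11) for siHJURP. In HAC 4-65 these were -0.50 (-0.54 to -0.46) and -0.51 (-0.63 to -0.39). The siControl libraries themselves lay below the untreated ones by -0.63 and -0.998 on the log2 scale. The ratios after depletion were thus above those of siControl, thymidine, colcemid and release cells and below that of untreated cells, in both lines. For siKAT7 in HAC 1-20 the gap to untreated cells was within counting error.

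**Figure D1:**
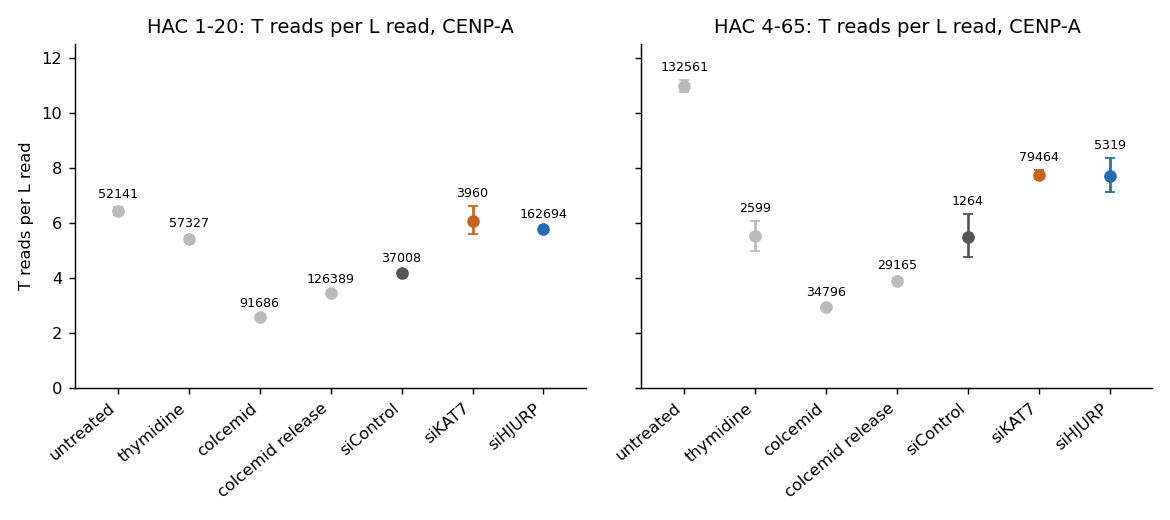
T reads per L read in the CENP-A library of each condition, in HAC 1-20 (left) and HAC 4-65 (right). Points are single libraries, bars are 95% counting intervals and the numbers above are T reads; siKAT7 and siHJURP sit close together, above siControl and below untreated.

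Counted per L read, most single codes were higher after depletion than in siControl cells. The T to L shift given above enters all of these values, so they are not a separate result. In HAC 1-20, 50 of 57 tested codes were higher in siKAT7 cells and 53 of 61 in siHJURP cells, with median log2 ratios of 0.55 and 0.40. In HAC 4-65, these were 46 of 59 and 48 of 59, with medians of 0.46 and 0.45. A code was tested where at least 5 reads were expected in the shallower of both libraries. The siKAT7 libraries each had 1 code that was below siControl by more than 2-fold per L read with an interval that excluded no change, T125 in HAC 1-20 and T018 in HAC 4-65. The siHJURP libraries had 0 such codes in either line. Per L read against untreated cells, 26 of the 61 carried codes of HAC 1-20 were higher after siKAT7 and 25 after siHJURP. In HAC 4-65, 20 of the 75 carried codes were higher after siKAT7 and 20 after siHJURP.

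How evenly the reads were spread over the carried T codes was next measured by the effective number of codes, the number of equally rich codes that would give the same concentration of reads (inverse Simpson index). This number was 43.9 in siControl, 46.4 in siKAT7 and 47.7 in siHJURP cells of HAC 1-20. The reads were more evenly spread after both depletions, by log2 ratios of 0.078 (0.050 to 0.11) for siKAT7 and 0.12 (0.11 to 0.13) for siHJURP. Among the other conditions of the line the number ran from 41.9 to 46.4, and only the siHJURP library lay outside. In HAC 4-65 the order was the opposite, with 54.2 effective codes in siControl, 51.8 in siKAT7 and 48.1 in siHJURP cells. The log2 ratio to siControl was -0.065 (-0.14 to 0.0067) for siKAT7 and -0.17 (-0.25 to -0.089) for siHJURP. Conditions without siRNA gave 41.2 to 52.9 in this line, so that the siControl library lay above them and both depletions inside. The richest single code held a small share in every library, at most 4.55%, for T091 in siHJURP cells of HAC 4-65. It was T077, T080 and T087 in the siControl, siKAT7 and siHJURP libraries of HAC 1-20, with 2.92%, 3.18% and 2.78% of T reads.

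**Figure D2:**
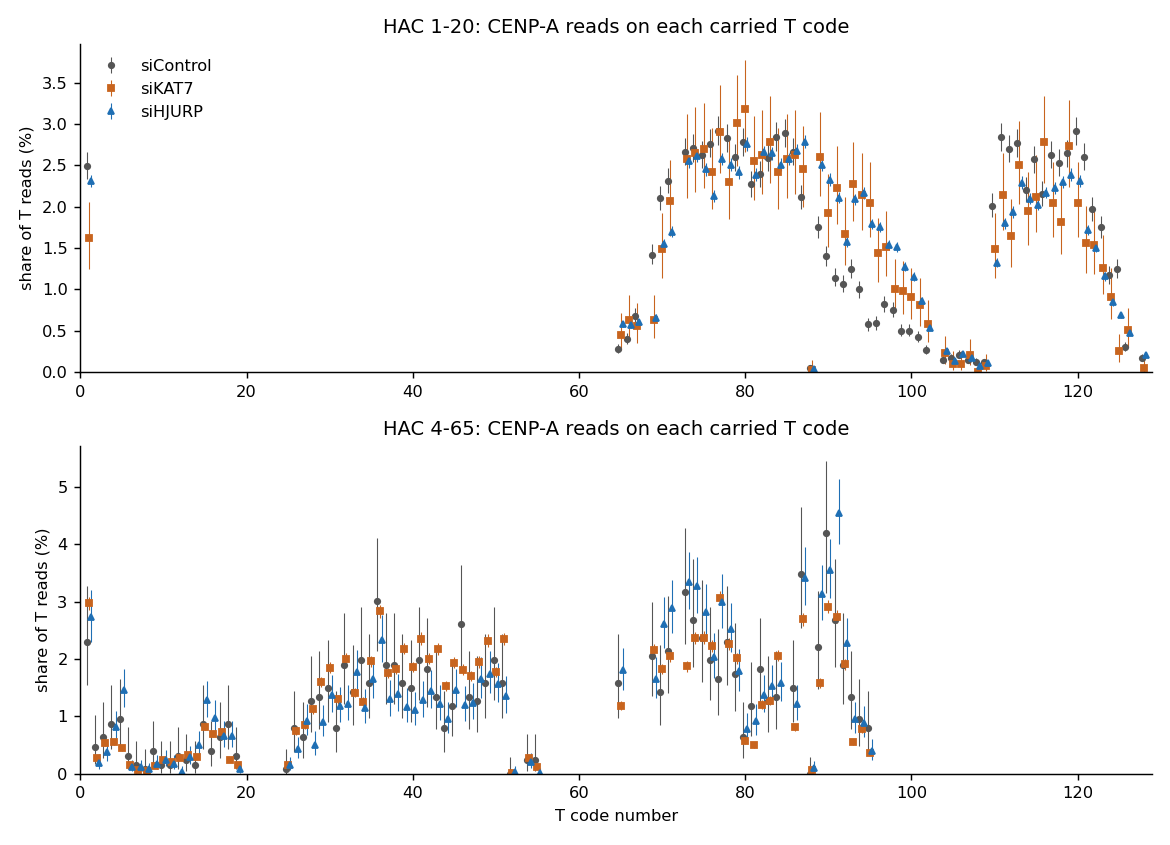
Share of T reads (%) on each carried T code, by code number, in siControl (circles), siKAT7 (squares) and siHJURP (triangles) cells of HAC 1-20 (top) and HAC 4-65 (bottom), with exact binomial 95% intervals. In HAC 1-20 the siControl points lie below both depletions from T089 to T104 and mostly above them from T110 to T125.

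Codes were then divided by their CENP-A density in untreated cells. Density was the log2 of CENP-A reads minus the mean log2 of reads over 6 histone marks, to take out the copy number of a code. It is thus CENP-A relative to these marks, which per the study themselves vary with CENP-A, some in the same and some in the opposite direction. In HAC 1-20 the untreated H3K36me2 and H3K9me3 libraries held only 2977 and 1462 T reads. Dense codes are the highest and sparse codes the lowest 1 in 3, that is 20 codes each in HAC 1-20 and 25 each in HAC 4-65. The classes were set in untreated cells and share no library with comparisons among the 6 siRNA libraries.

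In HAC 1-20, dense codes held 49.8% of T reads in siControl cells (18442 reads), 45.2% in siKAT7 cells (1789 reads) and 42.7% in siHJURP cells (69394 reads). Sparse codes held 8.26% (3055 reads), 12.7% (503 reads) and 14.04% (22850 reads). The dense share was thus lower and the sparse share higher in both depletions. The ratio of dense to sparse reads was 6.04 in siControl, 3.56 in siKAT7 and 3.04 in siHJURP cells, a log2 change from siControl of -0.76 (-1.12 to -0.41) for siKAT7 and -0.99 (-1.34 to -0.64) for siHJURP. These intervals were widened by the scatter of the codes within their runs, which was 5.33 and 35.3 times that of counting. Of the 20 sparse codes, 12 held a larger share after siKAT7 and 14 after siHJURP, against 6 and 4 of the 20 dense codes. The siHJURP library had a lower dense to sparse ratio than the siKAT7 library, by a log2 value of -0.23 (-0.39 to -0.062).

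The change of the dense to sparse ratio in HAC 1-20 depended on the stretch T094 to T110, which holds 13 of the 20 sparse codes, and on T125. Without that stretch, an alternative chosen after the values were seen, the change was 0.20 for siKAT7, in the opposite direction, and -0.24 for siHJURP. Among the other 7 sparse codes, T125 held 463 reads in siControl and 10 in siKAT7 cells, and without it as well, also chosen after the values were seen, the changes were -0.38 and -0.62. T065, T066 and T126, which are among the 6 codes then left, were each higher after both depletions, by 0.73, 0.67 and 0.77 after siKAT7. The rest, T067, T088 and T128, were lower after siKAT7, by -0.26, -0.48 and -1.42, with intervals that include 0. After siHJURP, T067 and T088 were lower, by -0.18 and -0.28, and T128 went from 0.1675% to 0.2028% of T reads. Among conditions without siRNA, the thymidine library gave a dense to sparse ratio of 3.29, lower than that of siKAT7 cells, and the others gave 5.76 to 6.44. Against untreated cells the changes were -0.86 for siKAT7 and -1.08 for siHJURP, while siControl differed from untreated cells by -0.093 (-0.48 to 0.29), and these comparisons share the untreated library with the choice of the classes.

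HAC 4-65 did not show the same pattern. Dense codes held 46.0% of T reads in siControl cells (581 reads), 49.0% in siKAT7 cells (38931 reads) and 42.5% in siHJURP cells (2263 reads). Sparse codes held 13.6% (172 reads), 9.09% (7221 reads) and 11.9% (632 reads). The dense to sparse ratio was 3.38, 5.39 and 3.58, so it was higher than siControl in siKAT7 cells by 0.67 on the log2 scale (0.32 to 1.03), and the siHJURP value of 0.084 had an interval from -0.28 to 0.45. Against untreated cells, whose ratio was 6.03, siKAT7 gave -0.16 and siHJURP gave -0.75, and the siControl library itself gave -0.84 (-1.31 to -0.36). The direction for siKAT7 thus depends on which control is taken. The siHJURP library, set against the siKAT7 library without use of either control, had a lower ratio by -0.59 (-0.92 to -0.26), the same direction as in HAC 1-20.

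The base composition of the codes moved with some of these values. Across 59 tested codes of HAC 4-65, the share of G and C at the variable bases had a Pearson's r of 0.48 with the change from siControl to siKAT7, and across 70 codes an r of -0.33 with that from siKAT7 to siHJURP. With the change from siControl to siHJURP, r was 0.092 across 59 codes. In that line the dense codes averaged 46.0% G or C at these bases and the sparse codes 30%. In HAC 1-20 the classes averaged 42.5% and 44.2%, and r lay between -0.10 and 0.024 in all 3 comparisons. Spearman's rank correlation there was -0.042 for siKAT7, -0.17 for siHJURP and -0.24 from siKAT7 to siHJURP. In HAC 4-65 it was 0.46 for siKAT7, 0.14 for siHJURP and -0.28 from siKAT7 to siHJURP. The codes of a line share the libraries and neighbours share letters, and the part of composition in the HAC 4-65 changes was not tested.

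**Figure D3:**
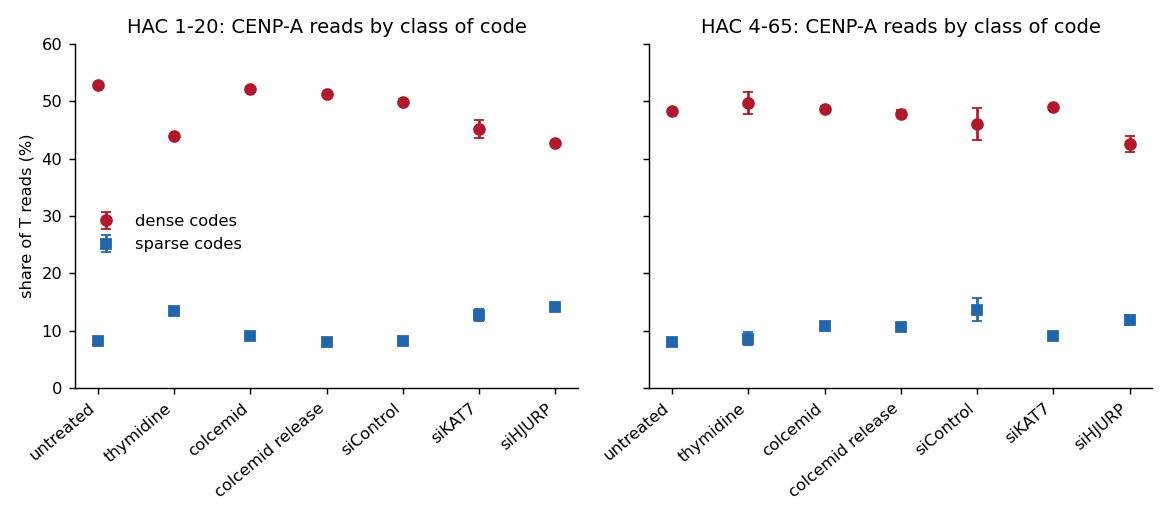
Share of T reads (%) on dense (circles) and sparse (squares) codes in the CENP-A library of each condition, with exact binomial 95% intervals, for HAC 1-20 (left) and HAC 4-65 (right). In HAC 1-20 thymidine, siKAT7 and siHJURP have the lowest dense and highest sparse shares, and in HAC 4-65 the siControl library has the highest sparse share, 13.6%.

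Which codes carried the HAC 1-20 changes was examined by runs of neighbouring code numbers. The numbers follow the input DNA, which per the study was rearranged when the HACs formed, so that neighbouring numbers need not be neighbours on the HAC. The run T094 to T110, with 16 carried codes, held 3105 of 37008 T reads in siControl cells (8.39%), 540 of 3960 in siKAT7 cells (13.6%) and 24177 of 162694 in siHJURP cells (14.9%). Its share was 1.63-fold higher after siKAT7 and 1.77-fold higher after siHJURP, or 0.70 (0.42 to 0.98) and 0.82 (0.52 to 1.13) on the log2 scale. This was the largest run change of the line in both comparisons with siControl. Its neighbour T084 to T093 held 17.2% of T reads in siControl, 20.8% in siKAT7 and 21.2% in siHJURP cells, higher by log2 values of 0.28 (0.060 to 0.49) and 0.30 (0.095 to 0.51). At higher numbers, the run T111 to T128, with 9 dense codes, held 35.2%, 27.9% and 28.1%, lower by -0.34 (-0.51 to -0.16) and -0.32 (-0.46 to -0.19). T065 to T083, with 11 dense codes, held 36.3%, 35.5% and 33.3%, and the intervals of its changes from siControl, -0.03 and -0.12, include 0.

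Counted per L read, the picture depended on the control. The run T111 to T128 was higher than siControl by 0.21 (-0.12 to 0.55) after siKAT7 and 0.15 (-0.11 to 0.42) after siHJURP, with intervals that include 0. The run T094 to T110 was higher in that measure by 1.25 (0.84 to 1.65) and 1.30 (0.92 to 1.68). Per L read against untreated cells, T111 to T128 was lower by -0.46 (-0.86 to -0.055) and -0.52 (-0.90 to -0.13), and T094 to T110 changed by 0.44 (-0.035 to 0.92) and 0.49 (-0.0085 to 1.00), with intervals that include 0. By share of T reads, with the untreated library as control, chosen after the data were seen, the run T094 to T110 was higher by 0.52 for siKAT7 and 0.65 for siHJURP, and T111 to T128 lower by -0.38 and -0.36. Both depletions had closely similar run profiles in this line. From siKAT7 to siHJURP the changes of T084 to T093, T094 to T110 and T111 to T128 were 0.03, 0.12 and 0.01, each with an interval that includes 0, and T065 to T083 was lower by -0.09 (-0.16 to -0.021).

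Code by code, all 15 carried codes from T089 to T104 held a larger share in both depletions than in siControl cells, the longest such stretch of HAC 1-20, picked out after its values were seen. Together they held 12.2% of T reads in siControl (4518 reads), 22.3% in siKAT7 (885 reads) and 23.4% in siHJURP cells (38131 reads). In all 3 libraries the share per code was lower towards T104, from 1.75%, 2.60% and 2.50% on T089 to 0.149%, 0.227% and 0.258% on T104, so that the decline along the codes lay higher after depletion at each of these codes.

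Neighbouring codes changed together in HAC 1-20. Between adjacent code numbers, Pearson's r of the changes was 0.53 over 50 pairs for siKAT7 to siControl and 0.77 over 55 pairs for siHJURP to siControl, and -0.12 over 48 pairs for siHJURP to siKAT7. In HAC 4-65 these values were 0.32, 0.069 and 0.29. These are descriptions, since adjacent pairs share codes and all share the same libraries.

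**Figure D4:**
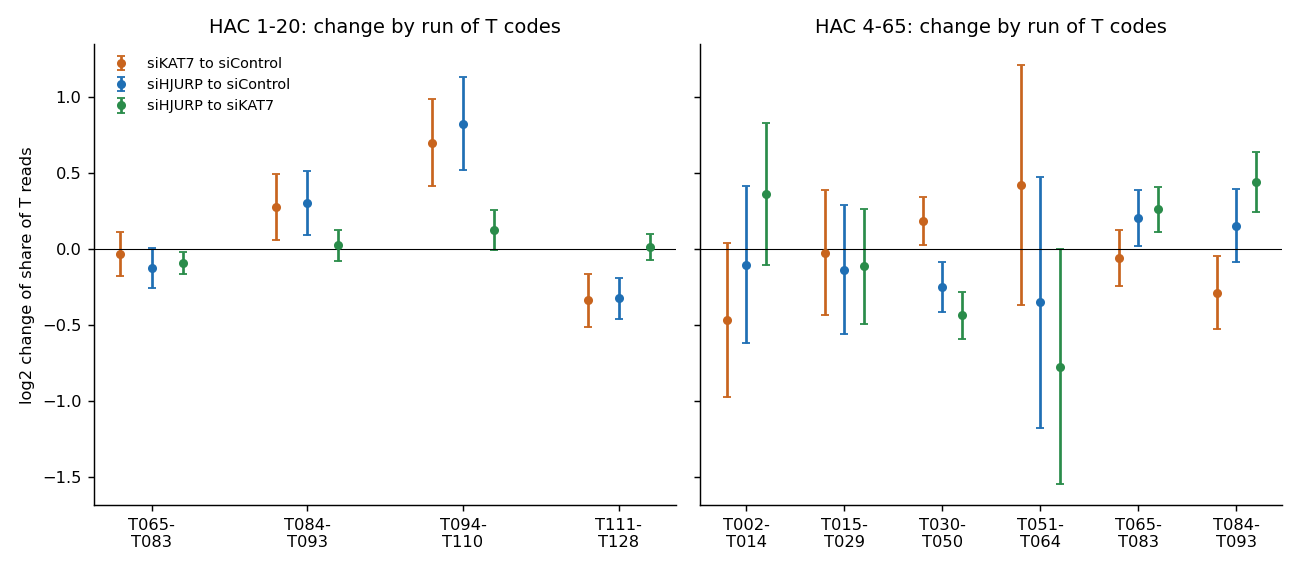
Log2 change of the share of T reads held by each run of neighbouring codes with at least 3 carried codes, with 95% intervals widened by the scatter of codes, for the 3 comparisons in HAC 1-20 (left) and HAC 4-65 (right). In HAC 1-20 the run T094 to T110 is highest at 0.70 and 0.82 and siHJURP to siKAT7 stays near 0.

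Single codes were compared with siControl by their share of T reads, and counted as past 2-fold where the interval also excluded no change. In HAC 1-20, 4 of 57 tested codes were past 2-fold higher after siKAT7 (7.02% of the codes tested) and 2 were lower (3.51%). After siHJURP, 7 of 61 were higher (11.5%) and 1 was lower (1.64%). The 4 codes higher after siKAT7 were T094, T095, T096 and T102, all in the run T094 to T110, which holds 6 of the 7 codes higher after siHJURP as well. The largest change was that of T095, with 213 reads in siControl (0.576% of T reads), 81 in siKAT7 (2.05%) and 2913 in siHJURP cells (1.79%), or 1.83 (1.47 to 2.20) and 1.63 (1.43 to 1.83) on the log2 scale. T096 had 218, 57 and 2855 reads, with changes of 1.30 (0.88 to 1.71) and 1.57 (1.37 to 1.77). T094 had 370, 85 and 3523 reads and changes of 1.11 in both depletions. These 3 neighbours thus at least doubled their share in both libraries. Further along the run, T099 had 186, 39 and 2074 reads, with changes of 0.98 and 1.34, and T102 had 101, 23 and 876 reads, with changes of 1.11 and 0.97. The end of the run did not follow. T106 had 78, 4 and 353 reads, and its changes of -0.90 and 0.03 had intervals that include 0. T108, of lowest density in untreated cells, had 46 reads in siControl (0.124% of T reads), 0 of 3960 in siKAT7, which allows a share of up to 0.0758% by a limit of 3 counts and 0.0931% by the exact interval, and 0.0682% of T reads in siHJURP cells, and its change after siHJURP was -0.87 (-1.37 to -0.38). T110, the last code of the run, had 745, 59 and 2148 reads and was lower, by -0.42 (-0.80 to -0.045) and -0.61 (-0.73 to -0.49).

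Both codes past 2-fold lower lay outside that run. T069 had 526 reads in siControl (1.42% of T reads), 25 in siKAT7 (0.631%) and 1071 in siHJURP cells (0.658%). It was lower by -1.14 (-1.72 to -0.57) and -1.11 (-1.26 to -0.96). Untreated cells held 0.802% of T reads on T069, and against them it was not past 2-fold after either depletion. T125 had 463 reads in siControl (1.25%), 10 in siKAT7 (0.253%) and 1121 in siHJURP cells (0.689%), lower by -2.24 (-3.12 to -1.36) and -0.86 (-1.02 to -0.71). T125 was the only code past 2-fold between both depletions, higher in siHJURP than in siKAT7 cells by 1.38 (0.50 to 2.25), which is 1.75% of 57 tested codes, and 0% were lower. The 10 reads in siKAT7 cells carry that difference. The 3 densest codes moved less than these. T078, T115 and T080 changed by -0.29, -0.27 and 0.20 after siKAT7, each with an interval that includes 0. After siHJURP they changed by -0.17 (-0.27 to -0.075), -0.34 (-0.45 to -0.24) and -0.01 (-0.11 to 0.083). Some other dense codes moved further, such as T121 by -0.72 after siKAT7 and T111 by -0.66 after siHJURP. Of the 20 dense codes, 6 were higher after siKAT7 and 4 after siHJURP.

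With counts so low in the siControl library of HAC 4-65, 59 of its 75 carried codes could be tested, with a median counting error of 0.32 to 0.36 on the log2 scale per code. None of the tested codes was past 2-fold higher after siKAT7 (0%) or siHJURP (0%). After siKAT7, 5 codes were lower (8.47%), T005, T018, T081, T093 and T095, on 12, 11, 15, 17 and 10 siControl reads. The largest was T018, with 11 siControl reads and 197 of 79464 in siKAT7 cells, a change of -1.87 (-2.73 to -1.02). After siHJURP, 2 codes were lower (3.39%), T028 by -1.34 (-2.21 to -0.46) on 16 siControl and 27 siHJURP reads, and T046 by -1.13 (-1.72 to -0.53) on 33 and 64 reads. Against untreated cells, with the control chosen after the data were seen, 13 of 75 tested codes were higher and 3 lower after siKAT7. After siHJURP, 9 of 70 tested codes were higher and 2 lower. The siControl library itself had 8 of 59 tested codes past 2-fold higher than untreated cells and 1 lower. T005, T018 and T081 were among those 8 higher codes. The counts in this line therefore differ with the control and with the set of codes that could be tested.

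**Figure D5:**
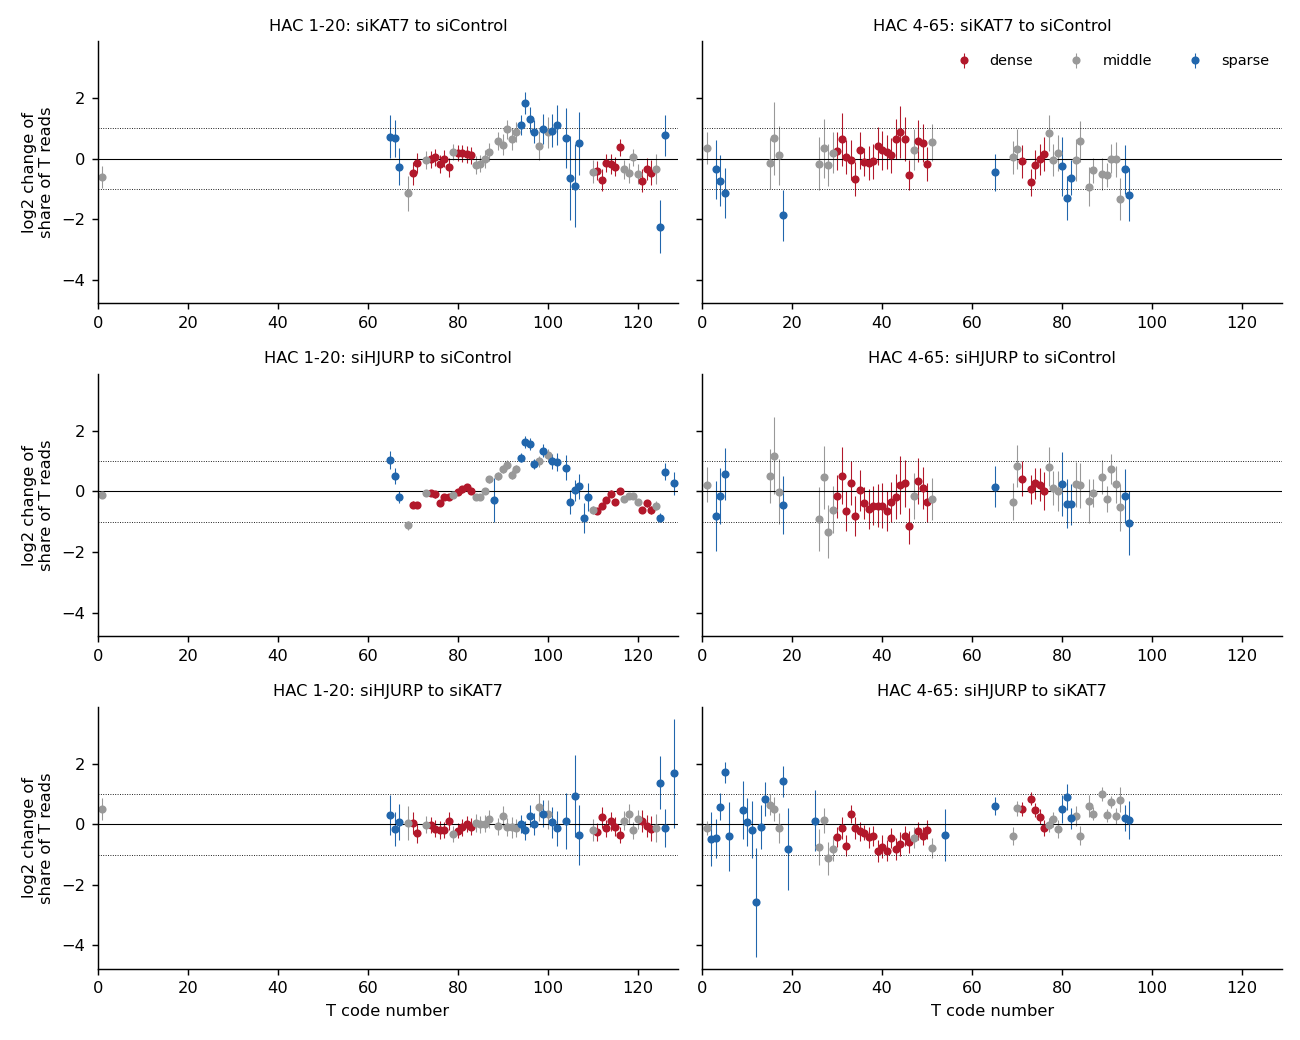
Log2 change of the share of T reads of each tested code by code number, with 95% counting intervals, coloured by density class, for 3 comparisons (rows) in HAC 1-20 (left) and HAC 4-65 (right); dotted lines mark 2-fold. The sparse codes from T094 on stand highest in the upper 2 panels of HAC 1-20, up to 1.83.

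The comparison of both depletions with each other in HAC 4-65 rests on 79464 and 5319 T reads and tested 70 codes. T005 and T018 were past 2-fold higher in siHJURP cells (2.86%), and T012 and T028 lower (2.86%). T005 had 358 reads in siKAT7 cells (0.451% of T reads) and 78 in siHJURP cells (1.47%), higher by 1.71 (1.36 to 2.06). T018 had 197 and 35 reads, higher by 1.43 (0.91 to 1.94). T012 had 223 and 2 reads, lower by -2.58 (-4.38 to -0.78), and T028 had 892 and 27 reads, lower by -1.12 (-1.67 to -0.57). T005 and T018, the 2 higher codes, are those shown above without G or C among the variable bases. Other carried codes without G or C there went both ways. T002, T006, T017 and T069 held smaller shares in siHJURP than in siKAT7 cells, and T065, T070, T081, T082 and T086 larger ones.

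By runs, the dense stretch T030 to T050 of HAC 4-65 held 39.8% of T reads in siKAT7 cells (31620 reads) and 29.4% in siHJURP cells (1565 reads), lower by -0.44 (-0.59 to -0.28), and 20 of its 21 codes were lower. Its share in siControl cells lay between, at 35.0% (442 reads), with changes of 0.19 (0.031 to 0.34) for siKAT7 and -0.25 (-0.41 to -0.086) for siHJURP. T084 to T093 held 15.3% in siKAT7 and 20.8% in siHJURP cells, higher by 0.44 (0.24 to 0.64), and T065 to T083 held 27.0% and 32.3%, higher by 0.26 (0.12 to 0.41). The reads of siHJURP cells thus lay less on T030 to T050 and more on T065 to T093 than those of siKAT7 cells. Against siControl, T084 to T093 changed by -0.29 (-0.53 to -0.048) after siKAT7 and T065 to T083 by 0.21 (0.024 to 0.39) after siHJURP. With the untreated library as control these were -0.62 (-0.86 to -0.38) and 0.11 (-0.076 to 0.30), so that the interval of T065 to T083 then included 0. T030 to T050 gave 0.23 (0.083 to 0.37) for siKAT7 and -0.21 (-0.41 to -0.011) for siHJURP against untreated cells, the same directions as against siControl. The sparse run T002 to T014 held 62 of 1264, 2821 of 79464 and 243 of 5319 reads in siControl, siKAT7 and siHJURP cells, and its changes among these libraries had intervals that include 0. Against untreated cells it was higher by 0.84 (0.25 to 1.44) after siHJURP, by 0.48 (-0.15 to 1.10) after siKAT7 and by 0.94 (0.26 to 1.62) in siControl cells. The 4 codes of T051 to T064 were higher by 0.89 (0.13 to 1.66) after siKAT7 against untreated cells, with 0.42 (-0.36 to 1.21) against siControl.

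Both lines carry 27 of the T codes, which allows the same code to be followed on different HACs. T094 and T095 are the only codes of T094 to T110 that HAC 4-65 carries. On them HAC 1-20 held 583 reads in siControl, 166 in siKAT7 and 6436 in siHJURP cells, and their part of the reads on the 27 shared codes was 2.94%, 7.18% and 6.94%. HAC 4-65 held 22, 904 and 68 reads on them, which is 3.43%, 2.45% and 2.24%. The log2 changes from siControl were 1.29 (0.73 to 1.85) and 1.24 (0.52 to 1.95) in HAC 1-20, and -0.48 (-1.34 to 0.37) and -0.62 (-1.52 to 0.28) in HAC 4-65, whose intervals include 0. T095 was past 2-fold in opposite directions in the lines after siKAT7, and 0 codes were past 2-fold in the same direction in both lines. Across 26 shared codes tested in both, Pearson's r between the changes of the lines was -0.51 for siKAT7, -0.33 for siHJURP and -0.072 for siHJURP to siKAT7. The codes on each axis share 1 pair of libraries, and that of HAC 4-65 includes the shallow siControl library in the first 2 cases.

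The histone marks of the same cells give a measure of whether the stretch T094 to T110 moved in other libraries too. From siControl to siKAT7 in HAC 1-20, its share of T reads changed by 0.36 (0.12 to 0.60) in the H4K20me1 library and by -0.30 (-0.49 to -0.12) in that of H3K36me2, and the intervals of H3K4me2, H3K14ac, H4K8ac and H3K9me3 include 0. From siControl to siHJURP the changes were 0.49 (0.27 to 0.70) for H4K20me1, 0.22 (0.010 to 0.43) for H4K8ac and -0.42 (-0.65 to -0.18) for H3K36me2, with intervals including 0 for H3K4me2, H3K14ac and H3K9me3. The CENP-A values of 0.70 and 0.82 were above all of these. In HAC 1-20 the dense to sparse ratio was lower for CENP-A. For H3K36me2 it was higher, by 1.03 (0.73 to 1.34) after siKAT7 and 1.34 (0.94 to 1.74) after siHJURP. It was also higher for H3K9me3, by 0.69 (0.42 to 0.96) and 0.94 (0.62 to 1.26). It was lower, as for CENP-A, for H4K20me1 by -0.38 (-0.67 to -0.091) after siKAT7 and -0.67 (-0.94 to -0.41) after siHJURP. After siHJURP it was also lower for H3K4me2, by -0.45 (-0.79 to -0.10), and for H4K8ac, by -0.39 (-0.64 to -0.14). The intervals of H3K14ac in both depletions, and of H3K4me2 and H4K8ac after siKAT7, include 0. HAC 4-65 did not share all of these directions. There the ratio was higher for H4K8ac, by 0.57 (0.38 to 0.76) after siKAT7 and 0.59 (0.17 to 1.02) after siHJURP. For H3K4me2 it was higher by 0.62 (0.35 to 0.89) after siKAT7. H4K20me1 gave -1.09 (-1.38 to -0.81) and 0.45 (0.061 to 0.84). H3K36me2 gave 0.595 (0.44 to 0.75) and 0.23 (0.067 to 0.39), and H3K9me3 0.25 (0.059 to 0.43) and 0.082 (-0.18 to 0.35). The rest had intervals that include 0.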

How the data were processed

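The CENP-A ChIP DNA of 3 reactions per condition was pooled, and its position codes were amplified together and read on a short-read sequencer. Trimming by the authors used cutadapt 4.0, and reads were matched to the code list with Bowtie and counted with SAMtools. The deposited values are raw read counts per code, not normalised. Reads that matched no code were left out of all totals.

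Groups came from the sample labels, with 1 library per line and condition. No p-value is given: over both lines, 2 pairs cannot reach a two-sided exact permutation p under 0.5. The members, classes, runs and measures were chosen with earlier results of these data known. The ratio of T to L reads has a Woolf interval. Share changes used 0.5 reads as pseudocount for single codes and none for runs, with log-ratio intervals, and shares have exact Clopper-Pearson intervals. Intervals of classes and runs were multiplied by the square root of the scatter of codes about their run's fold. The error of the effective number of codes came from the delta method. Scripts were tested on counts simulated with counting error alone, so the widened intervals were not tested in that way. The scripts used Python 3.11, numpy 2.4.6, pandas 2.3.3 and scipy 1.17.1.

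Codes were named by a rule. Per line it took the richest code of each library, the 3 largest rises and falls per comparison among codes with at least 5 expected reads, and the 3 codes of highest and lowest density. It also took codes past 2-fold in the same direction in both lines. Only some of these are printed, and called codes and the start of T094 to T110 were added after their values were seen.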

Additional observations from a re-analysis of the deposited data

Results flagged for a closer look

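Among the ratio of T to L reads, the dense to sparse change, the spread and the runs with at least 3 carried codes in both lines, 8 changes had opposite signs in the lines, each over 1 library pair per line, so the difference between lines was not tested. The dense to sparse change was -0.76 in HAC 1-20 and 0.67 in HAC 4-65 from siControl to siKAT7, and -0.99 and 0.084 from siControl to siHJURP. The run T084 to T093 changed by 0.28 and -0.29 from siControl to siKAT7. The run T065 to T083 changed by -0.12 and 0.21 from siControl to siHJURP, and by -0.092 and 0.26 from siKAT7 to siHJURP. The lines carry different other codes, so these shares have unlike totals. Within the 27 shared codes, T065 to T083 changed by -0.22 and 0.035 (-0.11 to 0.18) from siControl to siHJURP. From siKAT7 to siHJURP that measure gave -0.061 and -0.039 (-0.16 to 0.079), the same sign in both lines. For T084 to T093 it gave 0.23 and -0.16 (-0.37 to 0.053) from siControl to siKAT7. The effective number of codes changed on the log2 scale by 0.078 and -0.065 from siControl to siKAT7, by 0.12 and -0.17 from siControl to siHJURP, and by 0.040 and -0.11 from siKAT7 to siHJURP. The comparison of siKAT7 with siHJURP does not use the siControl library of HAC 4-65, which holds 1494 matched reads.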

How the results depend on the processing

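The number of T reads per L read kept its direction, within the counting interval, with carried codes only and without the richest code. With the untreated library as control it turned to -0.080 and -0.15 (siKAT7 and siHJURP, HAC 1-20) and -0.50 and -0.51 (HAC 4-65), all reversed, and the cause was not tested. The interval of the first, -0.20 to 0.044, includes 0. Of 37 alternative values of the dense to sparse change, 30 lay within the interval of the value reported. Without T094 to T110 it was 0.20 for siKAT7, -0.24 for siHJURP and -0.44 for siHJURP to siKAT7 in HAC 1-20, where 13 of the 20 sparse codes are left out, and without T125 as well -0.38 and -0.62 for siKAT7 and siHJURP. With untreated as control it was -0.16 for siKAT7 and -0.75 for siHJURP in HAC 4-65.

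Per L read in HAC 1-20, 18 of 57 tested codes were past 2-fold higher and 1 lower after siKAT7. After siHJURP these counts were 16 and 0 of 61. In HAC 4-65 they were 9 and 1, and 6 and 0, of 59 tested in both cases. The T to L shift adds to every code in that measure. With untreated as control the counts were 10 and 1 of 57, and 9 and 2 of 61, in HAC 1-20. In HAC 4-65 they were 13 and 3 of 75, and 9 and 2 of 70. In HAC 4-65, at least 10 expected reads left 2 codes lower after siKAT7 and 1 for siHJURP to siKAT7, and no filter gave 5 lower after siHJURP. Per L read, run T111 to T128 turned to 0.21 and 0.15 in HAC 1-20, and in HAC 4-65 T084 to T093 (siKAT7) and T030 to T050 (siHJURP) turned to 0.21 and 0.24. With Shannon entropy the spread changes were 0.039 and 0.087 in HAC 1-20, and -0.078 and -0.047 (siHJURP to siKAT7) in HAC 4-65. Each group has 1 library, and the lines taken as 2 pairs allow no two-sided exact permutation p under 0.5. Depth limits the siControl library of HAC 4-65 most, with a median of 17 reads per carried code.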
